A study of Homo sapiens with 18 samples.

Results

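The Siglecs are sialic acid-binding immunoglobulin-like lectins, receptors of immune cells that read the sialic acid caps of glycoproteins and glycolipids. The genes followed here are a list by family membership, drawn up with earlier results of these data known: CD33, CD22, SIGLEC1, SIGLEC5, SIGLEC6, SIGLEC7, SIGLEC8, SIGLEC9, SIGLEC10 and SIGLEC12. Of these 10 genes, 9 had a probe set annotated to that gene alone, out of 18417 genes with such a probe set, and CD33 was not analysed here. RNA came from NB4, an established human line of acute promyelocytic leukemia that matures towards neutrophil-like cells under all-trans retinoic acid (ATRA). Wild-type NB4 and NB4 called TG2 knockout, aimed at TGM2 (transglutaminase 2, a protein-crosslinking enzyme), were grown without ATRA or with 1 µM of it, harvested after 48 or 72 h. This gave 6 groups of 3 biological replicates, each on an Affymetrix whole-transcript array (18 arrays). The titles say knockout while the sample codes carry the letters KD, and how the modified cells were made, or whether they are 1 clone, is not given in the sources used here.

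Most Siglecs of the CD33-related branch carry an inhibitory tyrosine motif (ITIM) in the cytoplasmic tail. Once Src family kinases phosphorylate it, the motif recruits the phosphatases SHP-1 (PTPN6) and SHP-2 (PTPN11), which dampen activating receptors. A few members, such as those encoded by SIGLEC14, SIGLEC15 and SIGLEC16, lack this motif and pair with the activating adaptor DAP12 (TYROBP). Neutrophils and monocytes carry several of these receptors, and the genes of the CD33-related branch lie clustered on chromosome 19.

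The values are log2 signals of 1 probe set per gene. A difference was called when limma's adjusted p (Benjamini-Hochberg over all 33297 probe sets of a comparison) was under 0.05. TGM2 was checked first: without ATRA its arrays read 6.27 to 6.61 (wild-type) and 6.30 to 6.51 (knockout). It read 10.56 to 11.61 in knockout against 12.06 to 12.54 in wild-type arrays under ATRA. The transcript was therefore lower in the knockout under ATRA but not absent, and protein was not measured. The difference was called at 48 h (log2 difference −1.31) and at 72 h (−1.13 ± 0.19 SE, adjusted p = 0.0267). Arrays of one group differed more under ATRA, with a median SD of 0.215 to 0.243 against 0.0757 (wild-type) and 0.0985 (knockout) without it. Among the 3 wild-type arrays at 72 h, replicate 2 was the lowest for 8 of 9 Siglecs (it was the lowest for 33.1% of all probe sets), and knockout replicate 2 was the lowest at that time for 6 of 9 (36.5%). In bulk RNA, fewer cells of a type and less RNA per cell cannot be told apart.

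The promoters of 3 neighbouring members are shown because SIGLEC12, which rose most, and SIGLEC8, which was not called in any comparison, have similar upstream sequence, while SIGLEC6, next to SIGLEC12, fell. Each run is the 250 bases before the annotated start, 5′ to 3′ on the gene's strand, from RefSeq (GRCh38.p14). They are chr19:51501801-51502050 for SIGLEC12, chr19:51458455-51458704 for SIGLEC8 and chr19:51531671-51531920 for SIGLEC6, all on the minus strand. Capitals mark the hexamers AGGTCA and GGGTCA on either strand, the half-site letters bound by retinoic acid receptors and other nuclear receptors.
SIGLEC12: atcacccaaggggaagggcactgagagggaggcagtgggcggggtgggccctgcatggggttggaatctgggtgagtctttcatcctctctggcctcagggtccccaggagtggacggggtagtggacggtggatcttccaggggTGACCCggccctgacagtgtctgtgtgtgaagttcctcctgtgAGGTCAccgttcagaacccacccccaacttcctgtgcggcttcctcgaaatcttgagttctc
SIGLEC8: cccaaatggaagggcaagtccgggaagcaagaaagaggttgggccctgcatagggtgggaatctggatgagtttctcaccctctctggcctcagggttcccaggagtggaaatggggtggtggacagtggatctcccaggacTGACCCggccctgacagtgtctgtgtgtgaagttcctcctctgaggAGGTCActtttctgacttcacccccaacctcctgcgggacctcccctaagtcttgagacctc
SIGLEC6: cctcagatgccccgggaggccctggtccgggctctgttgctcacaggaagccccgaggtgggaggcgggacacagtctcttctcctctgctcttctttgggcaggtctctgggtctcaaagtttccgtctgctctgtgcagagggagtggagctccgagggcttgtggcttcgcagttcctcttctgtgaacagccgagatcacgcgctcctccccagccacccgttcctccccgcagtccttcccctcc
The windows of SIGLEC12 and SIGLEC8 were identical at 200 of 251 aligned columns (79.7%). Both held AGGTCA starting 62 bases before the start. GGGTCA lay on the opposite strand, 105 bases before the start in SIGLEC12 and 108 in SIGLEC8. The SIGLEC9 window, not printed, does not lie at the annotated 5′ end of that gene. It was 85.4% identical to that of SIGLEC12 and held AGGTCA and, on the opposite strand, GGGTCA 34 and 80 bases before its start. Either hexamer occurred in 22.6% of 27305 promoter windows of this length. The SIGLEC7 window, which also does not lie at the annotated 5′ end of its gene, held AGGTCA on both strands, 218 and 206 bases before its start. No match was found in the windows of SIGLEC5, SIGLEC6, SIGLEC10 and CD22. Alike upstream letters thus went with unlike array responses in SIGLEC12, SIGLEC8 and SIGLEC9, and a match is a description of the sequence only.

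What ATRA changed in wild-type cells was compared first. At 72 h SIGLEC12, SIGLEC10, SIGLEC7 and SIGLEC1 rose between 1.70-fold and 2.26-fold, and SIGLEC6 fell by 0.70 on the log2 scale. That is 4 of 9 measured members higher (23.1% of all probe sets were called higher) and 1 lower (21% of all). At 48 h SIGLEC12 and SIGLEC7 were higher (2 of 9, against 19.3% of all probe sets) and SIGLEC6 lower (1 of 9, against 19.6%). In either direction 5 of 9 members were called at 72 h and 3 of 9 at 48 h, where 44% and 38.9% of all probe sets were. With 9 genes these shares lie near the background, so the results concern single members and not the family. The median change of the 9 members was 0.34 at 48 h and 0.47 at 72 h, beside 0.10 and 0.12 over all probe sets. Arrays under ATRA lay above all untreated wild-type arrays for 5 of 9 members at each time (31.7% of all probe sets at 48 h and 35.1% at 72 h) and below them for 1 (26.4% and 27.2%).

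SIGLEC12 encodes a receptor that in humans has lost the arginine needed to bind sialic acid but keeps its ITIM. It read 7.25, 7.42 and 7.42 in the untreated wild-type arrays, 8.38, 8.30 and 8.62 at 48 h, and 8.94, 8.18 and 8.50 at 72 h. Every ATRA array was above every untreated one. The rise was 1.07 ± 0.16 (log2 difference ± SE) at 48 h and 1.18 ± 0.16 at 72 h, a 2.26-fold rise (limma adjusted p = 7.97e-05 and 2.78e-05). In knockout cells the log2 signals were 7.04, 6.96 and 7.15 untreated, 7.83, 7.95 and 7.65 at 48 h, and 7.65, 7.47 and 7.79 at 72 h. Here too the ATRA arrays lay above the untreated ones. The changes were 0.76 ± 0.16 and 0.59 ± 0.16, or 1.50-fold at 72 h (adjusted p = 0.00152 and 0.00876). In the knockout SIGLEC12 was the only member called higher after ATRA at either time (1 of 9, against 21.5% of all probe sets at 48 h and 22.8% at 72 h). Its ATRA calls in both genotypes held under all 16 alternatives run for each comparison. Among these, the mean over a gene's probe sets could not change a call, since each member has 1 probe set.

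SIGLEC10, whose product is an ITIM receptor of B cells and myeloid cells that binds CD24, read 7.37, 7.33 and 7.25 in untreated wild-type cells. It read 7.58, 7.44 and 8.13 at 48 h and 8.23, 7.95 and 8.36 at 72 h. Both ATRA groups lay above the untreated arrays, but 2 of the 48 h arrays did so only narrowly. The change was 0.40 ± 0.21 at 48 h (adjusted p = 0.146) and 0.86 ± 0.21 at 72 h (adjusted p = 0.00373), so the 72 h rise of 1.82-fold was the called one. Knockout arrays read 7.34, 7.45 and 7.17 untreated, 7.22, 7.26 and 7.82 at 48 h, and 7.96, 7.23 and 7.81 at 72 h. Those groups overlapped, and the knockout changes of 0.11 and 0.35 were not called (adjusted p = 0.688 and 0.198). Without knockout 72 h replicate 2 the 72 h change was called (0.56, adjusted p = 0.0408), as it was without replicate 2 of all 4 ATRA groups, an alternative chosen after seeing the data (adjusted p = 0.0253). The latter setting also called the 48 h wild-type change (0.54, adjusted p = 0.0384).

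SIGLEC7, an ITIM receptor of natural killer cells and monocytes, read 5.98, 5.98 and 5.92 in untreated wild-type arrays. Under ATRA it read 6.42, 6.62 and 6.98 at 48 h and 7.02, 6.20 and 6.97 at 72 h. All ATRA arrays were above the untreated ones, and replicate 2 at 72 h lay well below its 2 partners. The changes were 0.71 ± 0.21 (adjusted p = 0.0125) and 0.77 ± 0.21 (adjusted p = 0.00696, 1.71-fold). The 48 h call ended without wild-type 48 h replicate 3 (0.56, adjusted p = 0.0668). In the knockout SIGLEC7 went from 5.72, 5.97 and 5.99 to 6.33, 6.21 and 6.32 at 48 h and to 6.59, 5.95 and 6.41 at 72 h. The 48 h knockout arrays lay above the untreated ones and the 72 h arrays overlapped them through replicate 2. Its changes there, 0.39 and 0.42, were not called (adjusted p = 0.138 and 0.111). The 72 h change was called without knockout 72 h replicate 2 (0.61, adjusted p = 0.0334), and the 48 h change with only the compared arrays (adjusted p = 0.04). Without replicate 2 of the 4 ATRA groups both were called (adjusted p = 0.0441 at 48 h and 0.00697 at 72 h).

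SIGLEC1 encodes sialoadhesin, a macrophage receptor without an ITIM that binds sialylated cells and particles and is known to be raised by interferon. It read 6.36, 6.39 and 6.18 in untreated wild-type arrays, 6.66, 6.41 and 6.87 at 48 h, and 7.14, 6.68 and 7.40 at 72 h. The ATRA arrays stood above the untreated ones at both times, by 0.02 for replicate 2 at 48 h. The change was 0.34 ± 0.18 at 48 h (adjusted p = 0.148) and 0.76 ± 0.18 at 72 h (adjusted p = 0.00276, 1.70-fold). Without replicate 2 of the ATRA groups the 48 h change was called as well (0.45, adjusted p = 0.0285). Knockout arrays read 6.04, 6.28 and 6.24 untreated, 6.43, 6.80 and 6.53 at 48 h, and 6.16, 6.54 and 6.54 at 72 h. Only the 48 h group was clear of the untreated one, and neither change, 0.40 and 0.23, was called (adjusted p = 0.0843 and 0.322). Monocyte and macrophage markers moved beside these genes: 6 of 8 measured markers rose in wild-type cells at 72 h (23.1% of all probe sets did), led by VSIG4, CD68, CSF1R and CD14 at 0.98, 0.85, 0.79 and 0.51. In the knockout 3 of 8 rose (22.8% of all probe sets), with VSIG4 at 0.18 (adjusted p = 0.676), CD68 at 0.47 and CSF1R at −0.08 (adjusted p = 0.773). These genes were named by their wild-type change. The median change of the 8 markers at 72 h was 0.51 in wild-type and 0.38 in knockout cells. Arrays at 72 h lay clear above the untreated ones for 5 of 8 in wild-type cells (35.1% of all probe sets). In the knockout they did so for 6 of 8 (33.2%). The mean log2 level of the 8 markers was 5.66 to 5.74 in untreated wild-type arrays, 5.56 to 5.64 in untreated knockout arrays, 6.09 to 6.46 in wild-type arrays at 72 h and 5.82 to 6.08 in knockout arrays at 72 h. Their part in the Siglec values was not tested.

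**Figure D1:**
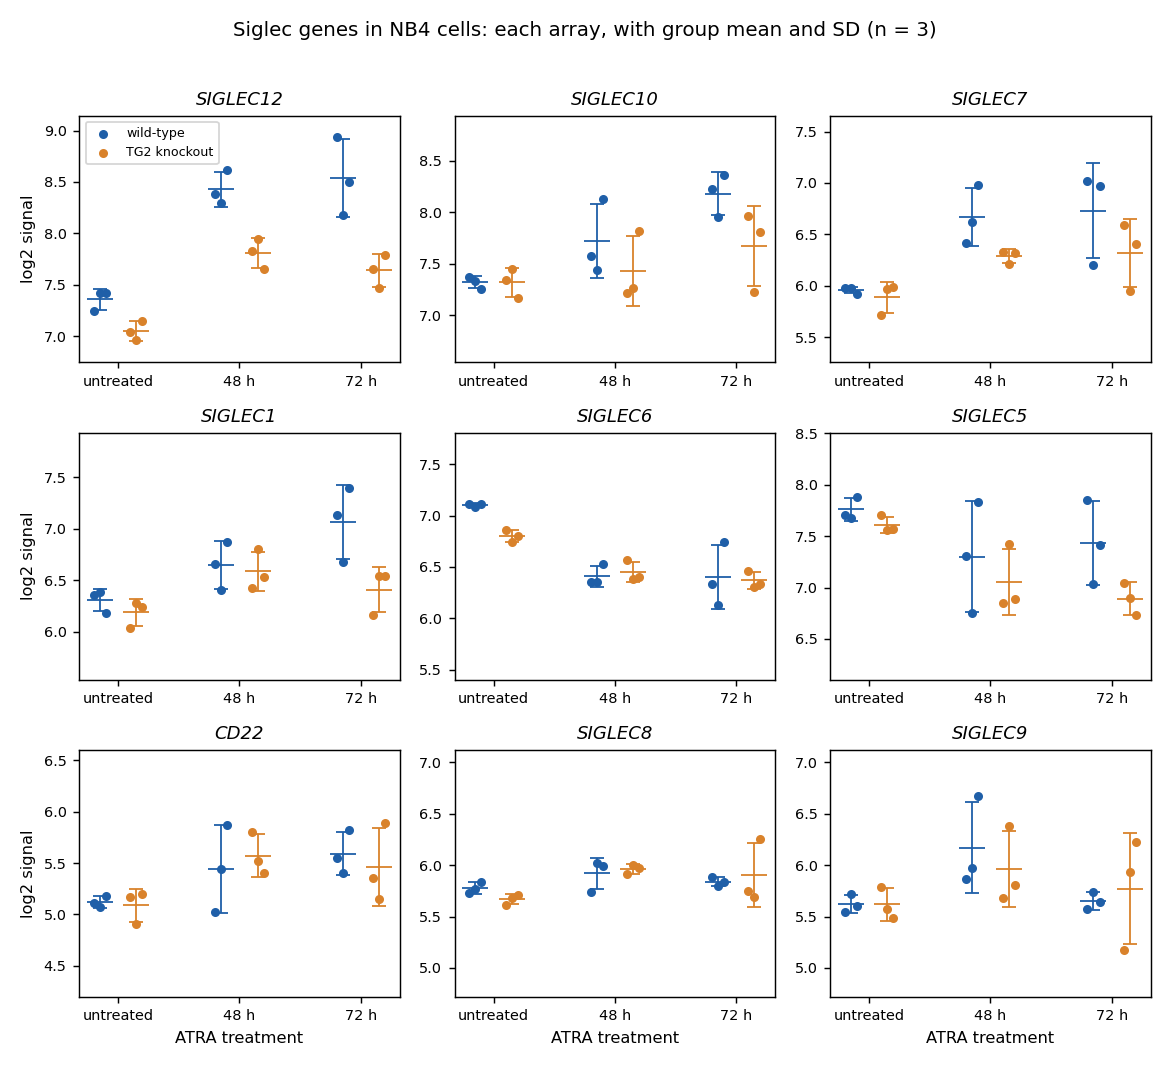
Log2 signal (vertical axis, 1 panel per gene, each spanning the same number of log2 units) of the 9 measured Siglecs in every array at 0, 48 and 72 h of ATRA (horizontal axis), with points for single arrays and bars for the mean and SD (n = 3) of wild-type and TG2 knockout cells. SIGLEC12 climbs in both genotypes and further in wild-type cells, reaching a mean of 8.54 against 7.64 at 72 h, and SIGLEC6 drops in both.

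SIGLEC6 and SIGLEC5 were the members that fell. SIGLEC6 encodes an ITIM receptor of trophoblast, B cells and mast cells. It read 7.11, 7.08 and 7.11 in untreated wild-type arrays, 6.35, 6.35 and 6.53 at 48 h, and 6.33, 6.13 and 6.74 at 72 h. No ATRA array reached an untreated one. The changes were −0.69 ± 0.13 at 48 h and −0.70 ± 0.13 at 72 h (adjusted p = 0.000725 and 0.00056), the latter 1.62-fold lower. In the knockout the arrays read 6.86, 6.74 and 6.80 untreated, 6.57, 6.38 and 6.40 at 48 h, and 6.46, 6.31 and 6.33 at 72 h, again without overlap. The knockout mean went from 6.80 to 6.37 at 72 h, where the wild-type mean was 6.40, with changes of −0.35 ± 0.13 and −0.43 ± 0.13 (adjusted p = 0.0462 and 0.0165). The 48 h call ended without any of the untreated knockout replicates 1, 2 and 3 or knockout 48 h replicate 2 or 3 (adjusted p up to 0.13), and without replicate 2 of the ATRA groups (adjusted p = 0.0751). The 72 h call ended without untreated knockout replicate 1 (adjusted p = 0.0588).

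SIGLEC5 encodes an ITIM receptor of neutrophils and monocytes and forms a pair with the activating SIGLEC14. In untreated wild-type arrays it read 7.71, 7.68 and 7.88, then 7.31, 6.75 and 7.83 at 48 h and 7.85, 7.03 and 7.41 at 72 h. Replicate 2 was the lowest at both times, replicate 3 at 48 h and replicate 1 at 72 h lay within the untreated range, and the changes of −0.46 and −0.33 were not called (adjusted p = 0.138 and 0.278). Without wild-type 48 h replicate 3 the 48 h change was called (adjusted p = 0.0238). In the knockout SIGLEC5 read 7.71, 7.56 and 7.57 untreated, 6.85, 7.42 and 6.89 at 48 h, and 7.04, 6.90 and 6.73 at 72 h. Every ATRA array there was below every untreated one. The knockout changes were −0.56 ± 0.24 (adjusted p = 0.0701) and −0.72 ± 0.24 (adjusted p = 0.023), the latter called and 1.65-fold lower. The 48 h change was called without knockout 48 h replicate 2 (−0.74, adjusted p = 0.0334), with median centring (0.0446), weights per group (0.0468) and only the compared arrays (0.0368), and without replicate 2 of the ATRA groups (0.00492). The 72 h call ended without untreated knockout replicate 1 (adjusted p = 0.0719), without knockout 72 h replicate 3 (0.0769) and with quantile normalization (0.0774). With SIGLEC6, 2 of 9 members fell in the knockout at 72 h (19.2% of all probe sets were called lower) and 1 of 9 at 48 h (19.9%). In either direction that is 3 of 9 at 72 h and 2 of 9 at 48 h, beside 42% and 41.4% of all probe sets. Knockout ATRA arrays were clear above the untreated ones for 5 of 9 members at 48 h and 1 at 72 h (33.2% of all probe sets at each time) and clear below for 2 at each time (24.2% and 24.6%).

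CD22, SIGLEC8 and SIGLEC9 were not called in any of the 4 ATRA comparisons. CD22, the ITIM receptor of B cells, read 5.11, 5.07 and 5.18 in untreated wild-type arrays, 5.02, 5.44 and 5.87 at 48 h and 5.55, 5.40 and 5.82 at 72 h. The knockout gave 5.17, 4.91 and 5.20, then 5.80, 5.52 and 5.40, then 5.35, 5.15 and 5.89. ATRA arrays were higher on average in all 4 comparisons, by 0.32 to 0.48, with adjusted p from 0.0809 to 0.242. With only the compared arrays CD22 was called in wild-type cells at 72 h (adjusted p = 0.0254) and in the knockout at 48 h (0.0413), and weights per group called the former (0.031). Its mean over the 18 arrays stood at percentile 35.3 of all probe sets, the lowest of the 9 members. The annotation ties the CD22 probe set to an accession it also gives for MAG, the neighbouring Siglec gene. Of 7 measured B lymphocyte markers 1 rose and 1 fell in wild-type cells at 72 h (23.1% and 21% of all probe sets), and 2 rose and 1 fell in the knockout (22.8% and 19.2%). CD79A rose (0.85 in wild-type, 0.62 in knockout cells) and CD79B fell (−0.73 and −0.77). The mean log2 level of those markers was 5.51 to 5.57 in untreated and 5.73 to 5.78 in 72 h wild-type arrays, and 5.52 to 5.59 and 5.59 to 5.80 in the knockout. Its part in the CD22 values was not tested.

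SIGLEC8, an ITIM receptor of eosinophils and mast cells, read 5.73, 5.77 and 5.84 in untreated wild-type arrays, 5.74, 6.02 and 5.99 at 48 h, and 5.88, 5.80 and 5.84 at 72 h. Knockout arrays read 5.61, 5.68 and 5.71, then 5.91, 6.0 and 5.97, then 5.75, 5.69 and 6.25. Its group means spanned 0.29 log2 units, the narrowest range of the 9 members, and its changes lay between 0.06 and 0.29 (adjusted p from 0.0938 to 0.741). Of the 8 measured markers of eosinophils, basophils and mast cells, 2 rose and 3 fell in wild-type cells at 72 h (23.1% and 21% of all probe sets), and 0 rose and 3 fell in the knockout (22.8% and 19.2%). PRG2, HDC and EPX changed by −3.72, −3.63 and −1.72 in wild-type and by −3.22, −3.25 and −1.77 in knockout cells, all called. CLC rose in wild-type cells (1.45) and changed by 0.45 in the knockout (adjusted p = 0.221). The mean log2 level of the 8 markers was 6.25 to 6.35 in untreated and 5.35 to 5.67 in 72 h wild-type arrays, and 6.20 to 6.25 and 5.29 to 5.51 in the knockout. The same markers moved beside SIGLEC6, and their part in either gene's values was not tested.

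SIGLEC9, an ITIM receptor of neutrophils and monocytes, read 5.54, 5.72 and 5.60 in untreated wild-type arrays, 5.86, 5.97 and 6.67 at 48 h and 5.57, 5.74 and 5.64 at 72 h. In the knockout it read 5.79, 5.57 and 5.49, then 5.68, 6.38 and 5.81, then 5.17, 5.93 and 6.22. Wild-type arrays stood above the untreated ones at 48 h and at their level at 72 h, with changes of 0.55 (adjusted p = 0.0955, and 0.0435 with weights per group) and 0.03 (adjusted p = 0.934). The 48 h and 72 h wild-type arrays did not overlap for SIGLEC9, in a comparison where 2.81% of all probe sets were lower without overlap. Between 48 and 72 h limma called 0 members in either genotype (and 0% of all probe sets). At an unadjusted p under 0.05 there were 2 members, SIGLEC1 and SIGLEC10, in wild-type cells and 0 in the knockout. The share of all probe sets at that threshold was not taken.

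**Figure D2:**
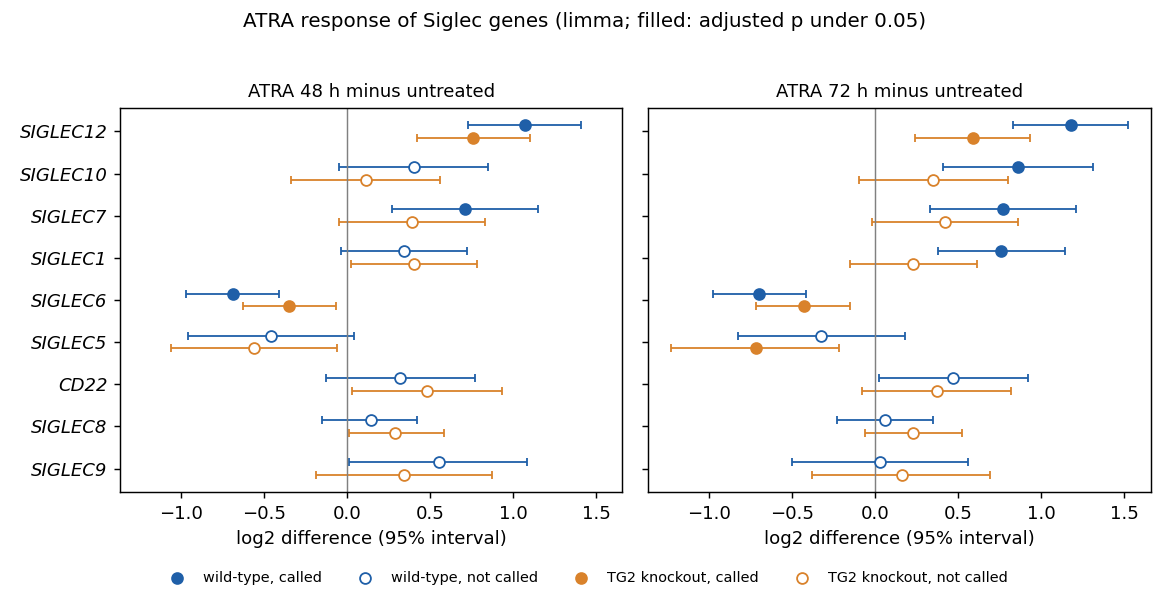
Log2 difference from untreated cells (horizontal axis, with 95% intervals) of each measured Siglec (vertical axis) at 48 h and at 72 h of ATRA, with wild-type and TG2 knockout cells in separate colours and filled points for calls. In wild-type cells at 72 h SIGLEC12, SIGLEC10, SIGLEC7 and SIGLEC1 lie to the right at 0.76 to 1.18, SIGLEC6 lies to the left at −0.70, and CD22, SIGLEC8, SIGLEC9 and SIGLEC5 have open points.

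The order of the 6 groups differed from gene to gene. SIGLEC12 ran from wild-type at 72 and 48 h (8.54 and 8.43, overlapping) to the knockout at 48 and 72 h (7.81 and 7.64, overlapping), then untreated wild-type (7.36) and untreated knockout cells (7.05), with no overlap between the last groups. SIGLEC6 ran from untreated wild-type (7.10) and untreated knockout cells (6.80), which did not overlap, to the 4 ATRA groups at 6.37 to 6.45, which did. For SIGLEC7 the 4 ATRA means, 6.29 to 6.73, formed a chain of overlapping neighbours, and the knockout at 48 h did not overlap untreated wild-type cells (5.96). SIGLEC8 had its 1 gap between untreated wild-type (5.78) and untreated knockout cells (5.67). In CD22, SIGLEC1, SIGLEC5, SIGLEC9 and SIGLEC10 every group overlapped its neighbour in the order.

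Whether the genotypes differed was compared at each time. SIGLEC12 was the single member called, at 72 h, where it was 1.87-fold lower in the knockout: 7.65, 7.47 and 7.79 against 8.94, 8.18 and 8.50. The groups did not overlap, and the difference was −0.90 ± 0.16 (95% interval −1.25 to −0.56, adjusted p = 0.0461). So 1 of 9 members was called, where 0.0961% of all probe sets were called and 0.0511% were called lower. The call lay close to the threshold. With the replicate number as a block over all 18 arrays, untreated and 48 h groups included, limma gave −0.90 with an adjusted p of 0.0577. A paired test of the 72 h arrays alone was not run. It was not called with median centring (adjusted p = 0.0587), eBayes without trend (0.0604), weights per group (0.172) or only the 6 arrays compared (0.643). It also ended without wild-type 72 h replicate 1 (−0.70, adjusted p = 0.149) or 3 (0.0847), or without knockout replicate 1 (0.111), 2 (0.0871) or 3 (0.0594). Without wild-type replicate 2 it held (adjusted p = 0.00896).

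None of the other 8 members was called at 72 h. SIGLEC1 differed by −0.66 ± 0.18 (adjusted p = 0.182), without overlap between 6.16, 6.54 and 6.54 in the knockout and 7.14, 6.68 and 7.40 in wild-type arrays. The groups were lower without overlap for SIGLEC1 and SIGLEC12, 2 of 9, as for 5% of all probe sets. Without wild-type 72 h replicate 2 SIGLEC1 was called too (adjusted p = 0.0479), as it was without replicate 2 of all 4 ATRA groups (−0.92, adjusted p = 0.0238). SIGLEC5, SIGLEC10 and SIGLEC7 differed by −0.54, −0.51 and −0.41 (adjusted p = 0.409, 0.374 and 0.48). CD22, SIGLEC6, SIGLEC8 and SIGLEC9 lay between −0.13 and 0.12, with 95% intervals that reached from −0.58 to 0.66. The median over the 9 members was −0.41, beside 0.01 over all probe sets.

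At 48 h and in untreated cells limma called 0 members (0.021% and 0.00601% of all probe sets were called). At an unadjusted p under 0.05 there was 1 at each time, SIGLEC12 at 48 h and SIGLEC6 untreated. SIGLEC12 at 48 h was lower in the knockout without overlap, by −0.62 ± 0.16 (adjusted p = 0.414), and so was SIGLEC7, by −0.39 (adjusted p = 0.864). That is 2 of 9 members, where 2.97% of all probe sets were lower without overlap. In untreated cells SIGLEC6 (−0.30), SIGLEC12 (−0.31) and SIGLEC8 (−0.11) were lower without overlap (adjusted p = 1 for each), 3 of 9 members against 9.3% of all probe sets. The median member difference was −0.21 at 48 h and −0.11 untreated. Of the 9 neutrophil markers and 8 monocyte and macrophage markers 0 were called between genotypes at any time. At an unadjusted p under 0.05 there were 5 and 1 at 48 h, and 3 of each list at 72 h. No share of all probe sets was taken at an unadjusted p, so these counts of markers and members have no background beside them. The mean log2 level of the neutrophil markers was 6.54 to 6.87 in knockout and 7.02 to 7.31 in wild-type arrays at 48 h, without overlap. For the monocyte and macrophage markers it was 5.88 to 5.95 and 5.90 to 6.40, with overlap. At 72 h the monocyte and macrophage markers read 5.82 to 6.08 in knockout and 6.09 to 6.46 in wild-type arrays, without overlap. The neutrophil markers then read 6.58 to 7.03 and 6.95 to 7.46, with overlap. The part of both marker lists in the Siglec differences was not tested.

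**Figure D3:**
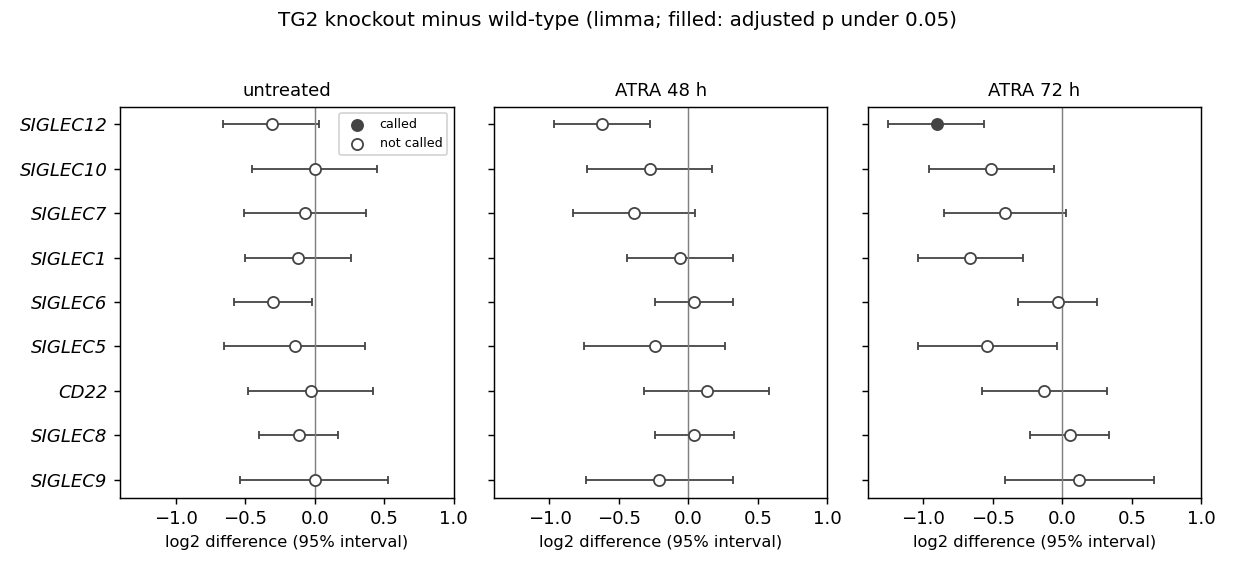
Log2 difference between TG2 knockout and wild-type cells (horizontal axis, knockout minus wild-type, with 95% intervals) of each measured Siglec (vertical axis) in untreated cells and at 48 and 72 h of ATRA, with a filled point for a call. The SIGLEC12 point moves from −0.31 to −0.62 to −0.90 and is filled at 72 h only.

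A genotype difference at one time is not a test of unequal responses, so the difference of the ATRA responses was tested itself. Limma called 0 members at 48 and 72 h, beside 0.003% and 0% of all probe sets. At an unadjusted p under 0.05, for which no share of all probe sets was taken, there were 0 and 1. The 1 was SIGLEC12 at 72 h, whose response was smaller in the knockout by −0.59 ± 0.23 (95% interval −1.08 to −0.10, adjusted p = 1). SIGLEC1 followed with −0.54 ± 0.25 and SIGLEC10 with −0.52 ± 0.30 (adjusted p = 1 for each). The ATRA comparisons of a genotype share their untreated arrays, and these differences therefore rest on the same 6 untreated values at both times.

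Of the other Siglec genes, 6 had a probe set of their own. SIGLEC16 and SIGLEC11, near-identical paralogs of an activating and an inhibitory receptor, rose. SIGLEC16 read 5.93, 5.74 and 5.89 in untreated wild-type arrays, 7.42, 6.59 and 7.16 at 48 h and 7.59, 6.90 and 7.05 at 72 h, with changes of 1.20 ± 0.29 and 1.33 ± 0.29 (adjusted p = 0.00363 and 0.00153). In the knockout SIGLEC16 changed by 1.27 and 0.94 (adjusted p = 0.00241 and 0.016). SIGLEC11 changed by 1.02 and 0.62 in wild-type cells (adjusted p = 0.000672 and 0.0185) and by 0.78 and 0.44 in the knockout (adjusted p = 0.00487 and 0.0846). Their promoter windows were identical at 159 of 161 aligned columns (98.8%), and cross-hybridization between the pair, as between SIGLEC5 and SIGLEC14, was not tested.

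MAG, the Siglec of myelin, was called in 1 of the 4 ATRA comparisons, the knockout at 72 h (0.64 ± 0.15, adjusted p = 0.00325, with 0.30 and an adjusted p of 0.113 in wild-type cells). SIGLEC15, a DAP12-linked receptor of osteoclasts and macrophages, was called there as well (0.44, adjusted p = 0.0471, with 0.17 and 0.437 in wild-type cells). The difference of response between genotypes was not called for any of the 6 genes at 48 or 72 h. SIGLEC14 changed by 0.27 and −0.19 in wild-type and by 0.10 and 0.06 in knockout cells (adjusted p from 0.324 to 0.827). SIGLECL1 changed by −0.44, 0.12, −0.39 and −0.50 in the same order (adjusted p from 0.147 to 0.734), at levels of 3.35 to 4.55. Between genotypes none of the 6 was called, and SIGLEC16 at 72 h stood at −0.83 (adjusted p = 0.288).

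The members of the CD33-related cluster on chromosome 19 lie close together and did not move together. In RefSeq order SIGLEC9 and SIGLEC7 stand at one end, with changes of 0.03 and 0.77 in wild-type cells at 72 h. SIGLEC10, SIGLEC8, SIGLEC12 and SIGLEC6 follow further on, at 0.86, 0.06, 1.18 and −0.70, and SIGLEC5 and SIGLEC14 close the cluster at −0.33 and −0.19. A called rise thus stood next to an uncalled gene or a fall at SIGLEC12 and its neighbours. Genes of other families lie between them, and they are named here for their position, after their values were seen. ZNF175, a zinc-finger gene between SIGLEC6 and SIGLEC5, fell by 1.31 on the log2 scale in wild-type cells (−1.07 in the knockout; adjusted p = 6.12e-06 and 5.67e-05). NKG7, a granule protein gene of cytotoxic cells between SIGLEC7 and SIGLEC10, changed by 1.07 and 0.70. The formyl peptide receptor genes FPR1 and FPR2 beyond SIGLEC14 changed by 0.90 each in wild-type cells and by 0.72 and 0.23 in the knockout, the last not called (adjusted p = 0.508).

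**Figure D4:**
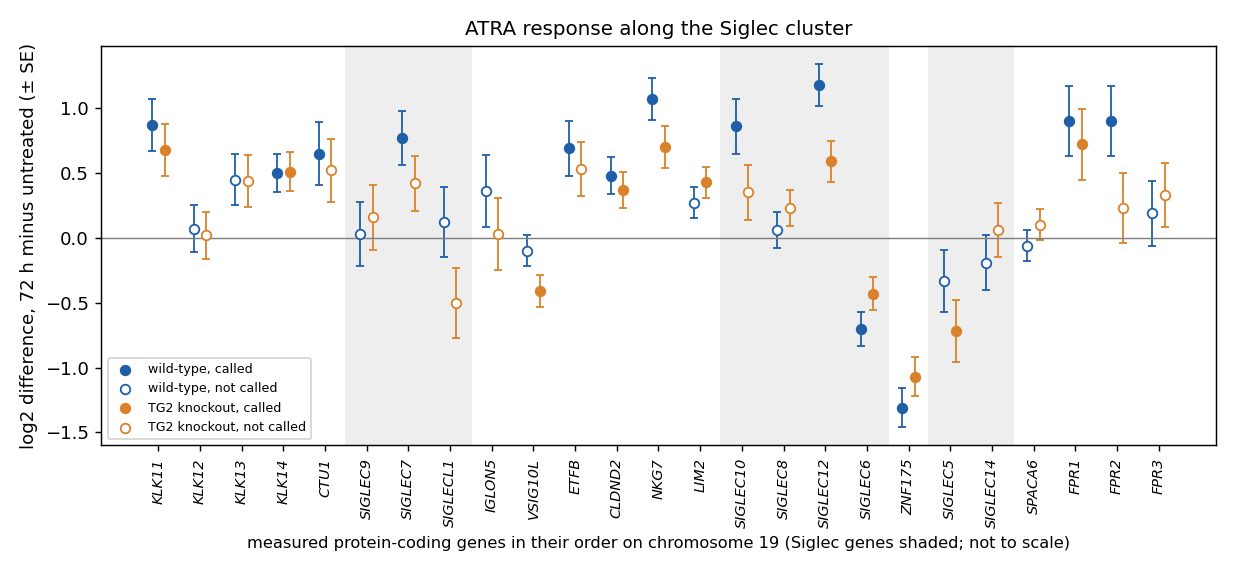
Log2 difference at 72 h of ATRA (vertical axis) of the measured genes along the Siglec stretch of chromosome 19 in RefSeq order (horizontal axis, not to distance) for wild-type and TG2 knockout cells, with bars of ± 1 SE, filled points for calls and the Siglec genes shaded. SIGLEC12 at 1.18 and SIGLEC6 at −0.70 in wild-type cells are immediate Siglec neighbours with opposite changes.

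The members whose group means spanned most were SIGLEC12 (1.49 log2 units), SIGLEC1 (0.89) and SIGLEC5 (0.87), and genes with the most similar pattern over the 18 arrays were named for each. The points share the ATRA step and the arrays, so the correlations are descriptions. For SIGLEC12 the 5 closest genes were FBXO6, IFI6, LGALS9, GIMAP6 and CD300C, with r of 0.958, 0.945, 0.944, 0.938 and 0.938. Over the 12 ATRA arrays alone r was 0.913, 0.894, 0.910, 0.956 and 0.888. IFI6 is an interferon-induced gene and LGALS9 encodes the lectin galectin-9. At 72 h IFI6 changed by 2.11 in wild-type and 1.04 in knockout cells, and LGALS9 by 1.67 and 1.10.

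For SIGLEC1 the closest were BPIFB3 (0.947), CYP4F2 (0.888), KRTAP5-9 (0.886), IFI6 (0.882) and CHRNE (0.881), with r of 0.825 to 0.941 over the ATRA arrays. IFI6 was thus near both SIGLEC12 and SIGLEC1. SIGLEC5 was closest to MYD88 (0.869), the adaptor of Toll-like receptors, then to ZMIZ2, ZNF506, RAB11B and ZNF16 (0.857, 0.847, 0.846 and 0.833). MYD88 changed by −0.13 in wild-type and −0.84 in knockout cells at 72 h. Among the members themselves SIGLEC7 and SIGLEC12 were the closest pair (r = 0.89, and 0.79 over the ATRA arrays). SIGLEC5 and SIGLEC12 gave −0.07 over 18 arrays but 0.76 over the 12 ATRA arrays.

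The signalling partners of Siglecs were followed as a list of 14 genes, 13 of them measured. At 72 h 7 rose in wild-type cells and 0 fell, against 23.1% and 21% of all probe sets, and 6 rose and 1 fell in the knockout, against 22.8% and 19.2%. FGR, a Src family kinase of myeloid cells, changed by 4.34 ± 0.18 and 4.24 ± 0.18 (adjusted p = 8.04e-11 and 1.28e-10). CSK, which restrains Src kinases, changed by 1.15 and 0.89, and PTPN6, the SHP-1 phosphatase, by 0.70 and 0.65, all called. TYROBP, the DAP12 adaptor, changed by 1.04 ± 0.17 in wild-type (adjusted p = 0.000167) and 0.53 ± 0.17 in knockout cells (adjusted p = 0.0227). At 72 h TYROBP differed between genotypes by −0.64 ± 0.17 (adjusted p = 0.178). The list's median change was 0.54 in wild-type and 0.30 in knockout cells.

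Genes that make or remove the sialic acids which Siglecs bind were called in both directions, where 23.1% of all probe sets rose and 21% fell in wild-type cells at 72 h (22.8% and 19.2% in the knockout). Of 20 sialyltransferases, which add sialic acid to glycans, 4 rose and 5 fell in wild-type cells, and 5 rose and 5 fell in the knockout, shares near that background. ST6GAL1, which makes the linkage that CD22 prefers, changed by −1.29 ± 0.18 and −1.37 ± 0.18 (adjusted p = 2.62e-05 and 1.92e-05). ST3GAL6 changed by −1.48 and −1.33 and ST3GAL1 by −0.91 and −1.07, all called. ST8SIA4, which builds polysialic acid, was called lower in wild-type cells (−0.93, adjusted p = 0.0342) and changed by −0.83 in the knockout (adjusted p = 0.0559). Of 7 genes of sialic acid synthesis 1 rose and 1 fell in wild-type cells, and 2 rose and 2 fell in the knockout. GNE, the key enzyme of synthesis, changed by −0.77 and −0.69, and RENBP, an epimerase that works against it, by 1.59 and 1.27. Of 7 sialidase and sialic acid O-acetylation genes 1 rose and 1 fell in wild-type cells, and 3 rose and 2 fell in the knockout. NEU1, the lysosomal sialidase, changed by 1.13 and 0.76, and NEU3, the sialidase of the plasma membrane, by −0.99 in both.

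Of 9 glycoprotein ligands 3 rose in wild-type cells (23.1% of all probe sets) and 4 in the knockout (22.8%), and 0 fell in either (21% and 19.2%). CD52, a small sialylated glycoprotein that binds the SIGLEC10 product, changed by 2.75 ± 0.26 and 2.50 ± 0.26 (adjusted p = 6.2e-07 and 2.17e-06). LGALS3BP, a secreted ligand of several Siglecs, changed by 2.11 ± 0.12 and 1.14 ± 0.12. Its difference of response, −0.97, was the lowest of the 9 ligands and was not called. In untreated cells the knockout minus wild-type difference among the ligands reached 0.52, which was not called either. PTPRC, which encodes CD45, a ligand of CD22, changed by 0.99 and 0.95 (adjusted p = 0.0303 and 0.0376). None of the ligands, partners and sialic acid genes named here was called between the genotypes at 72 h.

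**Figure D5:**
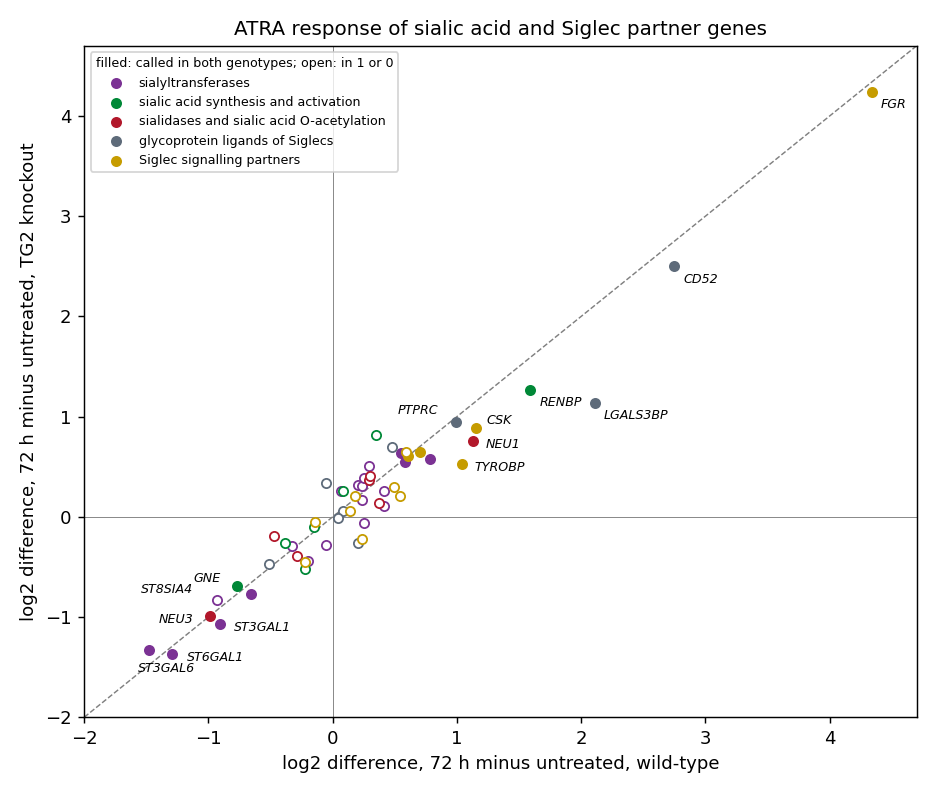
Log2 difference at 72 h of ATRA in TG2 knockout cells (vertical axis) against that in wild-type cells (horizontal axis) for the measured genes of 5 lists around the Siglecs, with the line of equal change dashed and filled points for genes called in both genotypes. Most genes lie near the line, FGR at 4.34 and 4.24 among them, while LGALS3BP at 2.11 and 1.14 and TYROBP at 1.04 and 0.53 lie below it. The difference of response at 72 h was not called for LGALS3BP or TYROBP.

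Markers of maturation moved beside these genes. Of 9 measured neutrophil markers 6 rose and 0 fell in each genotype at 72 h (of all probe sets 23.1% rose and 21% fell in wild-type and 22.8% and 19.2% in knockout cells). CSF3R, ITGAM, ITGAX and MMP8 changed by 2.33, 2.32, 2.30 and 2.20 in wild-type and by 1.72, 1.36, 1.51 and 0.98 in knockout cells. The mean log2 level of these 9 was 5.86 to 5.94 in untreated wild-type arrays, 5.87 to 5.98 in untreated knockout arrays, 6.95 to 7.46 in wild-type arrays at 72 h and 6.58 to 7.03 in knockout arrays at 72 h. Promyelocyte granule markers identify the NB4 stage. Of 5 measured, 3 rose and 2 fell in wild-type cells at 72 h (23.1% and 21% of all probe sets). In the knockout 1 rose and 2 fell (22.8% and 19.2%). CTSG and MPO fell (−2.48 and −0.47 in wild-type, −2.93 and −0.46 in knockout cells). AZU1 rose in both (1.13 and 0.84), and PRTN3 was called in wild-type cells (0.42, adjusted p = 0.0405, with 0.20 and an adjusted p of 0.324 in the knockout). The part of these shifts in the Siglec values was not tested.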

How the data were processed

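RNA from 18 cultures of the human line NB4 (wild-type and TG2 knockout, untreated or with ATRA for 48 or 72 h, 3 labelled biological replicates a group) was measured on Affymetrix gene arrays. The authors deposited 1 value per probe set and array. These deposited values were taken as log2, since they lie between 0.73 and 13.56, with array medians of 6.12 to 6.26. How they were background-corrected, normalized and summarized was not given in the sources used here; they were not renormalized. Detection calls were not used, so whether a dim probe set read above background was not tested. This bears most on CD22, SIGLEC9 and SIGLEC8, whose means stood at percentiles 35.3, 43.1 and 43.9 of all probe sets. The number of arrays limits the precision.

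Probe sets were named from the platform annotation, which names 1 gene for 19460 of 33297. For a gene with several, the one with the highest mean was used. Each of the 9 measured members has 1. CD33 has none there and was not analysed here. No coordinates of probe sets were used.

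All 18 arrays entered one linear model with a mean for each group (limma 3.58.1, R 4.3.3; lmFit, then eBayes with trend). Adjusted p is Benjamini-Hochberg over all probe sets of a comparison, called under 0.05, with 2-sided tests. The fit was tested on simulated data. The fit assumes 1 spread for all groups, although untreated arrays varied less.

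The members and the 13 gene lists were chosen with earlier results of these data known. Named genes are all members, the other measured Siglecs, TGM2, the 5 genes most like each of 3 members, and up to 4 members of each other list with the largest change among those called at 72 h in wild-type cells.

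To see whether replicate numbers pair arrays, each array's departure from its group mean was correlated over probe sets with that of the array of like number. At 72 h wild-type and knockout arrays of numbers 1 to 3 gave r = 0.103, 0.16 and 0.138. Arrays of unlike number gave −0.163 to 0.0296, below all like values, so the numbers were taken to pair these arrays. At 48 h like numbers gave 0.196, 0.194 and 0.089 and unlike numbers −0.238 to 0.0936, so the lowest like value fell below the highest unlike one. Between untreated groups like numbers gave −0.128 to −0.056. The numbers were not taken to pair the arrays at either of these times, though the 48 h values leave that unsettled. Wild-type arrays of 48 and 72 h gave r = 0.095, 0.137 and 0.186 for like numbers. Unlike numbers gave −0.126 to −0.00735, below all like values, so by the same rule the numbers pair these arrays. In the knockout like numbers gave −0.0274 to 0.0507 and unlike numbers −0.0934 to 0.104, which does not meet the rule.

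Promoter windows came from RefSeq (GRCh38.p14), with 14 Siglec genes matched (8 of the 9 measured members), and were aligned pairwise (91 pairs, local alignment) with Biopython 1.88. Alternatives were other normalizations, a filter on dim probe sets, other variance models, the replicate block, only the compared arrays, all probe sets of a gene, and leaving out each array.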

Additional observations from a re-analysis of the deposited data

How the results depend on the processing

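Called directions of the members never turned under the alternatives run. The sign differed for 67 values that were not called under either setting. The ATRA calls of SIGLEC12 in both genotypes at both times, of SIGLEC6 in wild-type cells at both times, and of SIGLEC1, SIGLEC7 and SIGLEC10 in wild-type cells at 72 h held under all 16 alternatives of their comparison. The alternative with all probe sets of a gene could not change them, since each member has 1. Quantile normalization lowered the median ATRA change over all probe sets from between 0.10 and 0.14 to between 0.05 and 0.07.

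Members called between the genotypes at 72 h numbered 1, and 0 with median centring, without trend, with weights per group, with only the compared arrays and with the replicate block. The block changed no other count of called members by more than 1.5 times. Without replicate 2 of the 4 ATRA groups, chosen after seeing the data, the count was 2 (SIGLEC1 and SIGLEC12). The same setting gave 5 in wild-type cells at 48 h (against 3) and 5 in the knockout at 72 h (against 3). Only the compared arrays gave 5 in the knockout at 48 h (against 2), and weights per group gave 1 (SIGLEC6, lower) between untreated genotypes (against 0). Leaving out 1 array at a time gave 1 to 2 in the knockout at 48 h, 1 to 5 in the knockout at 72 h and 0 to 2 between genotypes at 72 h. For ATRA in wild-type cells it always gave 3 (48 h) and 5 (72 h), but at 48 h not always the same members. Without wild-type 48 h replicate 3, limma no longer called SIGLEC7 (adjusted p = 0.0668) and called SIGLEC5 lower (adjusted p = 0.0238). The cause of these shifts was not tested beyond what the settings themselves remove.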
